A study of Mus musculus with 28 samples.

Results

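The colony-stimulating factors and their receptors were followed in murine bone marrow-derived macrophages (BMDMs) treated with von Willebrand factor (VWF), the plasma glycoprotein that tethers platelets at sites of vessel injury, or with bacterial lipopolysaccharide (LPS). The 8 genes were taken by name from a table of 54532 Ensembl genes. They were the 3 factors Csf1, Csf2 and Csf3 and the 5 receptor chains Csf1r, Csf2ra, Csf2rb, Csf2rb2 and Csf3r, and all 8 were found. Bulk RNA sequencing covered 28 cultures, with 5 PBS control and 5 VWF cultures at both 3.5 h and 16 h and 4 LPS cultures at each time. All cultures came from BMDMs of C57/B6JB mice aged 8 to 12 weeks per the study's methods, with no genetic change named, grown for 7 days with macrophage colony-stimulating factor (M-CSF, the protein product of Csf1). Before treatment, the cells were kept overnight in medium with recombinant M-CSF (25 µg/ml per the labels), then washed and given fresh medium with 1 mM CaCl2. The study's methods give 25 ng/ml for the 7 days of growth, and why the units differ is not stated. Human plasma-derived VWF was then added at 10 µg/ml or LPS at 100 ng/ml. Whether the fresh medium held M-CSF is not given in the sources used here. The labels call the cultures biological replicates without saying how many mice they came from, so p values measure the spread between cultures.

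M-CSF, GM-CSF (Csf2) and G-CSF (Csf3) are secreted proteins that drive the survival, growth and maturation of myeloid cells. M-CSF acts through the tyrosine kinase receptor Csf1r and keeps macrophages alive in culture. GM-CSF binds a receptor made of its own alpha chain, Csf2ra, and the beta chain Csf2rb, which is shared with the IL-3 and IL-5 receptors and signals through Jak2 and Stat5, while mice carry a second, close copy, Csf2rb2, that serves the IL-3 receptor. G-CSF binds Csf3r and is best known for the production of neutrophils. Resting macrophages are known for high Csf1r, whereas Csf2 and Csf3 are typically switched on by inflammatory signals.

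At 3.5 h, transcripts of both inflammatory factors, Csf2 and Csf3, were raised from near 0 by VWF and by LPS alike, while at 16 h both were called against control with LPS and neither with VWF. Csf1 was lower in all 5 VWF cultures at 16 h than in every other culture of the study. Csf3r was raised by VWF at 3.5 h and most strongly by LPS at 16 h, when both beta chains were raised by LPS as well. With all cultures and TMM scaling, Csf1r and Csf2ra passed the thresholds in none of the 9 comparisons of 2 groups.

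Levels are given as RPKM, counts divided by the exon length in kilobases and by the TMM-scaled library size, so that they can be compared between genes. A gene was called where edgeR's quasi-likelihood test gave an adjusted p under 0.05 and an absolute log2 fold change over 1, with adjustment over all genes that reached 10 TPM (transcript abundance scaled for length and depth) in at least 1 culture of the comparison. Csf2 and Csf3 stayed under 10 TPM in all 28 cultures, with highest values of 8.25 and 5.19 TPM. Their tests therefore come from fits without that filter, over 24940 to 26653 genes for 2 groups and 28225 to 28918 genes for changes of an effect with time. The other 6 genes were tested in every comparison.

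Total counts per culture lay between 41131209 and 77699206. All 7 macrophage markers were present in all cultures, with F4/80 (Adgre1) at 152 to 1013 RPKM, and the neutrophil gene Ly6g and the T cell gene Cd3e did not exceed 0.0372 and 0.0258 RPKM, while Mmp8 of the neutrophil list and Cd4 of the T cell list had counts in all 28 cultures, at up to 6.10 and 2.12 RPKM. A pair of libraries stood apart from the rest of their groups. Control 16 h replicate 5 and LPS 16 h replicate 4 differed from the other cultures of their group by a root-mean-square of 1.04 and 0.809 on the log2 scale, against 0.185 to 0.486 for the other cultures, and had counts on 16690 and 16011 genes, against 17535 to 20593. The summed macrophage markers of the first were at 3514 RPKM, against a group median of 10270 RPKM. Of the 7 markers, Lyz2 weighs most in this sum, at a median of 6261 RPKM over the 28 cultures. Cd14 was next, at a median of 809 RPKM. Where leaving out either of these libraries changed a call, or took an adjusted p to the other side of 0.05, both values are given. TMM factors were 0.729 to 0.845 in LPS cultures and 0.944 to 1.19 in controls. Scaling by library size alone lowered the median log2 fold change of all genes from -0.02 to -0.55 for LPS against control at 3.5 h and from -0.03 to -0.59 at 16 h, and from -0.01 to -0.22 for VWF against control at 3.5 h. In these comparisons the split of higher and lower calls went from 1047 and 963 to 704 and 2213, from 1221 and 989 to 782 and 2319, and from 746 and 458 to 608 and 652. For VWF against LPS the split went from 353 and 503 to 772 and 334 at 3.5 h and from 837 and 1095 to 1772 and 687 at 16 h.

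Csf1 (ENSMUSG00000014599, GRCm38 chromosome 3, 107741048 to 107760469, minus strand) had the largest fall with VWF. Its promoter is shown because it is the member whose level separated VWF at 16 h from all other cultures. The 250 bases before its start, chr3:107760470-107760719 on the minus strand (RefSeq, GRCm38.p6), read as follows, with matches on either strand to the core letters of an NF-kappaB site (GGG, any 5 bases, then CC) in capitals.
Csf1 promoter: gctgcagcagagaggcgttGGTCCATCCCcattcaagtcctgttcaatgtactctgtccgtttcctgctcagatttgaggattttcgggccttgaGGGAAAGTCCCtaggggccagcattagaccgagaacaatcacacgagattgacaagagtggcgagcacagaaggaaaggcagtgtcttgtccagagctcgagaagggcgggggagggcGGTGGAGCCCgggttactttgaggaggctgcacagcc
Matches began at positions -231, -155, -154 and -37 from the start, and those at -155 and -154 overlapped. Such a match was present in 45.8% of 32851 promoters of the same length, and no match to the AP-1 letters TGANTCA was found in this window, so the letters describe the window and say nothing of what binds there. RefSeq promoter windows were listed for 5 of the 8 genes (Csf1, Csf2, Csf2ra, Csf2rb2 and Csf3r).

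In control cultures, Csf1 was at 76.9, 85.9, 37.9, 88.3 and 42.6 RPKM at 3.5 h and at 46.0, 49.0, 28.3, 46.4 and 19.7 RPKM at 16 h. With VWF it was at 54.7, 36.2, 24.5, 34.4 and 34.97 RPKM at 3.5 h and at 8.17, 4.75, 2.98, 3.73 and 2.77 RPKM at 16 h. The VWF and control cultures overlapped at 3.5 h, whereas at 16 h the highest VWF culture lay below the lowest control. LPS cultures were at 45.7, 53.4, 35.4 and 41.3 RPKM at 3.5 h and at 46.0, 29.7, 22.1 and 16.4 RPKM at 16 h, and overlapped with controls at both times. Csf1 fell with VWF at 16 h, from 37.9 ± 13.1 (SD, n = 5) to 4.48 ± 2.20 (SD, n = 5) RPKM (log2 fold change -3.10 ± 0.37, SE, adjusted p = 0.000127), where 1 of the 6 members tested was called, against 4.15% of all 7798 genes called lower. The call held in each fit that left out 1 culture, with log2 fold changes of -3.43 to -2.97. At 3.5 h the difference was below the fold threshold (log2 fold change -0.83 ± 0.28, SE, adjusted p = 0.0308). It passed that threshold without VWF 3.5 h replicate 1 (log2 fold change -1.02) and with scaling by library size (-1.04). Over all fits without 1 culture it went up to -0.70, and the adjusted p went up to 0.0834. In bulk RNA, fewer cells of a type and less RNA per cell cannot be told apart.

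For LPS against control, Csf1 was not called at 3.5 h (log2 fold change -0.59 ± 0.26, SE, adjusted p = 0.0678) or at 16 h (log2 fold change -0.38 ± 0.35, SE, adjusted p = 0.392). VWF cultures had less Csf1 than LPS cultures at 16 h (log2 fold change -2.67 ± 0.39, SE, adjusted p = 0.000226), where 4 of 6 members were called, all lower with VWF, against 14.5% of 7574 genes called lower. Between 3.5 h and 16 h Csf1 fell in VWF cultures (log2 fold change -3.04 ± 0.32, SE, adjusted p = 7.52e-06), where 3 of 6 members were called lower against 12.2% of 7927 genes. The change of the VWF effect with time was itself past the thresholds (log2 fold change -2.23 ± 0.47, SE, adjusted p = 0.000931), and so was the change of the difference between VWF and LPS with time (log2 fold change -2.46 ± 0.46, SE, adjusted p = 0.000242). Of the 6 members, 1 was called lower in the former, against 7.77% of genes, and 4 in the latter, against 14.3%. The summed macrophage markers, among which Lyz2 weighs most, were 11930 to 16300 RPKM in VWF cultures at 16 h, against 3514 to 11510 in controls. The 5 stromal markers summed to 6.71 to 34.9 against 1.92 to 21.9 RPKM. The part of cell make-up in the Csf1 result was not tested.

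**Figure D1:**
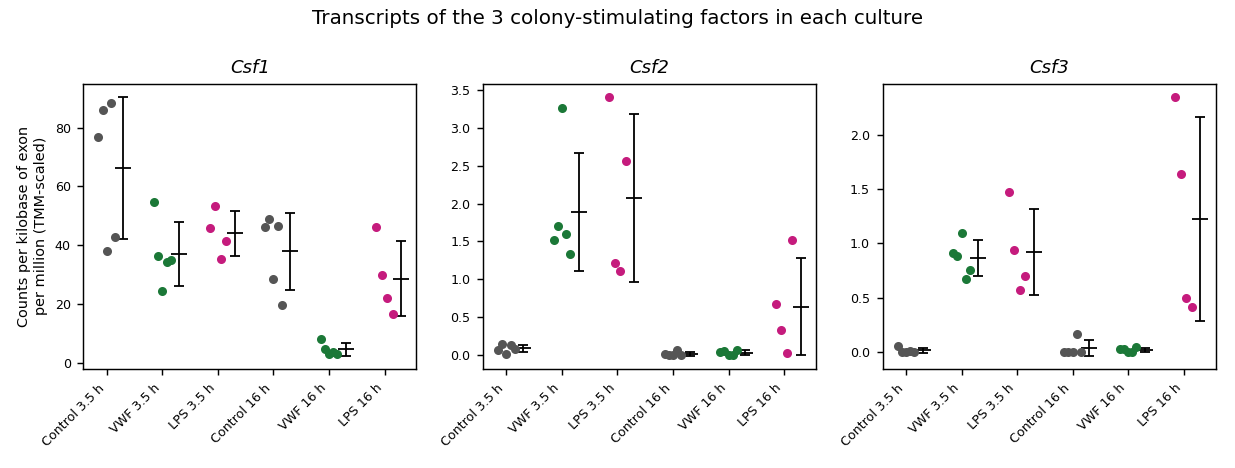
Levels of the 3 colony-stimulating factor genes, in TMM-scaled RPKM, for each culture (points) by treatment and time, with the mean and SD (bars). Csf1 lay between 2.77 and 8.17 in the 5 VWF cultures at 16 h, below all other cultures, and Csf2 and Csf3 were above all controls in every VWF and LPS culture at 3.5 h.

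Csf2 (ENSMUSG00000018916, GRCm38 chromosome 11, 54247271 to 54249667, minus strand) encodes GM-CSF. Over 12.0% of its exon length it overlaps Gm12223 on the opposite strand, and the strand setting of the counting is not given in the sources used here. Control cultures at 3.5 h held 3, 6, 1, 8 and 3 counts. VWF cultures at that time held 69, 67, 136, 57 and 84 counts and LPS cultures held 106, 40, 34 and 75. All treated cultures at 3.5 h were above all controls, and VWF and LPS cultures overlapped. Summed over cultures and scaled for depth, Csf2 was 20.8 times (13.4 to 34.0) as high with VWF as in controls and 23.3 times (14.9 to 38.3) as high with LPS (exact 95% intervals in brackets, which cover counting error only). Both rises were called (log2 fold change 4.45 ± 0.42, SE, adjusted p = 1.07e-07 for VWF and log2 fold change 4.55 ± 0.48, SE, adjusted p = 2.24e-08 for LPS), where 5.33% and 8.35% of all genes were called higher without the filter. VWF and LPS did not differ past the threshold at 3.5 h (log2 fold change -0.14 ± 0.35, SE, adjusted p = 0.792; 7.69% of genes were called).

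At 16 h, Csf2 held 1, 0, 0, 3 and 0 counts in controls, 2, 4, 0, 0 and 3 counts in VWF cultures and 24, 14, 1 and 48 counts in LPS cultures. The VWF cultures were back within a few counts of the controls, and LPS cultures other than replicate 3 stayed above both. LPS against control was called (log2 fold change 5.24 ± 1.19, SE, adjusted p = 0.00494; 8.71% of 26410 genes were called higher), VWF against control was not (log2 fold change 1.06 ± 1.46, SE, adjusted p = 0.692; 5.21% were called), and VWF was lower than LPS (log2 fold change -4.10 ± 0.98, SE, adjusted p = 0.00477; 9.03% were called lower). In VWF cultures Csf2 fell from 3.5 h to 16 h (log2 fold change -5.71 ± 0.53, SE, adjusted p = 4.95e-08; 8.65% of genes were called lower). In LPS cultures the fall missed the threshold (log2 fold change -1.68 ± 0.76, SE, adjusted p = 0.137; 17.2% of genes were called) but passed without LPS 16 h replicate 4 (log2 fold change -2.54, adjusted p = 0.0143). It also passed without a filter in DESeq2 (-1.70, adjusted p = 0.0498), with all groups in one fit (-1.74, adjusted p = 0.0423) and with the replicate block (-2.09, adjusted p = 0.0101). With median-of-ratios factors or library size scaling it was not called. The difference between VWF and LPS changed with time (log2 fold change -3.94 ± 0.99, SE, adjusted p = 0.00567; 6.59% of genes were called lower). The change of the VWF effect alone missed the threshold in edgeR (log2 fold change -3.34 ± 1.31, SE, adjusted p = 0.117) and passed it without a filter in DESeq2 (log2 fold change -3.27, adjusted p = 0.0151).

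Csf3 (ENSMUSG00000038067, GRCm38 chromosome 11, 98701263 to 98703629, plus strand) encodes G-CSF and followed the same order at 3.5 h. Controls held 4, 0, 0, 1 and 0 counts, VWF cultures 73, 61, 81, 42 and 84 and LPS cultures 81, 55, 31 and 36. No treated culture overlapped with the controls, and the VWF cultures lay within the range of the LPS cultures on the RPKM scale, at 0.668 to 1.10 against 0.573 to 1.48. Csf3 was 72.2 times (30.6 to 224) as high with VWF as in controls (log2 fold change 6.07 ± 0.57, SE, adjusted p = 8.59e-08) and 77.9 times (32.8 to 242) as high with LPS (log2 fold change 6.11 ± 0.64, SE, adjusted p = 1.91e-08), and the 2 treatments did not differ past the threshold (log2 fold change -0.11 ± 0.30, SE, adjusted p = 0.821).

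Csf3 at 16 h stood at 0, 0, 0, 14 and 0 counts in controls, all of them in replicate 4, at 2, 3, 0, 0 and 3 in VWF cultures and at 149, 120, 29 and 23 in LPS cultures. Every LPS culture was above every control and VWF culture. The rise with LPS was called (log2 fold change 5.35 ± 1.22, SE, adjusted p = 0.00694), and with the replicate number as a block it was not (log2 fold change 5.64, adjusted p = 0.0567). VWF was not called against control (log2 fold change -0.79 ± 1.62, SE, adjusted p = 0.807) and was lower than LPS (log2 fold change -6.00 ± 0.75, SE, adjusted p = 1.74e-05), and VWF cultures fell from 3.5 h to 16 h (log2 fold change -5.55 ± 0.51, SE, adjusted p = 4.11e-08). In LPS cultures the 2 times did not differ past the threshold (log2 fold change 0.42 ± 0.52, SE, adjusted p = 0.558). The change of the VWF effect with time (log2 fold change -6.82 ± 1.53, SE, adjusted p = 0.00322; 3.84% of genes were called lower) rested on Control 16 h replicate 4, without which it was -2.33 with an adjusted p of 1.00. The difference between VWF and LPS changed with time (log2 fold change -5.89 ± 0.77, SE, adjusted p = 2.22e-06), and this held in each fit without 1 culture, at -6.29 to -5.39.

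Csf1r, the M-CSF receptor (ENSMUSG00000024621, GRCm38 chromosome 18, 61100598 to 61132149, plus strand), had the highest level of the 8 genes in every group, with group means of 141 to 273 RPKM. Over 15.1% of its exon length it overlaps Hmgxb3 on the opposite strand. Controls were at 205, 241, 258, 334 and 297 RPKM at 3.5 h and at 150.5, 174, 188, 170.0 and 95.2 RPKM at 16 h. VWF cultures were at 276, 259, 247, 244 and 341 RPKM at 3.5 h and at 252, 261, 312, 204 and 259.7 RPKM at 16 h. All 5 VWF cultures at 16 h were above all controls and all LPS cultures of that time, whereas at 3.5 h VWF and control cultures overlapped. LPS cultures were at 137, 207, 194 and 171 RPKM at 3.5 h and at 151, 135, 187 and 90.8 RPKM at 16 h.

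With VWF at 16 h, Csf1r had an adjusted p under 0.05 without reaching the fold threshold (log2 fold change 0.71 ± 0.19, SE, adjusted p = 0.0177). It was also lower with LPS at 3.5 h than in controls, below that threshold (log2 fold change -0.58 ± 0.16, SE, adjusted p = 0.00784) with TMM factors and past it with scaling by library size (-1.12). VWF against LPS gave log2 fold change 0.65 ± 0.15, SE, adjusted p = 0.00413 at 3.5 h and log2 fold change 0.88 ± 0.21, SE, adjusted p = 0.00443 at 16 h, the latter past the fold threshold without LPS 16 h replicate 3 (1.05) or with scaling by library size (1.33). Between the times, controls went down (log2 fold change -0.78 ± 0.19, SE, adjusted p = 0.00862), with no overlap between the cultures, while VWF cultures did not differ past the threshold (log2 fold change -0.07 ± 0.13, SE, adjusted p = 0.660). No member was called in the controls over time, against 9.08% of 8333 genes. The change of the VWF effect with time was 0.70 ± 0.24 (SE, adjusted p = 0.0286), and its adjusted p went up to 0.0698 in fits without 1 culture.

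Csf2ra, the GM-CSF receptor alpha chain (ENSMUSG00000059326, GRCm38 chromosome 19, 61223957 to 61228429, minus strand), spread widely within groups at 16 h. Controls at that time were at 80.0, 85.1, 84.7, 96.5 and 9.08 RPKM and LPS cultures at 82.5, 66.2, 90.1 and 17.7 RPKM. The lowest culture of each was the library that stood apart from its group. VWF cultures at 16 h were at 61.6, 68.2, 88.5, 42.0 and 70.0 RPKM, and all 3 groups overlapped. At 3.5 h Csf2ra ranged from 52.3 to 88.4 RPKM in controls, from 42.2 to 76.7 with VWF and from 26.05 to 61.5 with LPS. It was lower with LPS than in controls at 3.5 h, short of the fold threshold (log2 fold change -0.63 ± 0.23, SE, adjusted p = 0.0319), and past it with scaling by library size (-1.18). In fits without 1 culture this difference lay between -0.88 and -0.46, with an adjusted p of up to 0.0868. With all cultures, none of the other comparisons had an adjusted p under 0.05. The change over time in LPS cultures (log2 fold change 0.64 ± 0.45, SE, adjusted p = 0.249) was 0.96 with an adjusted p of 0.00548 without LPS 16 h replicate 4. Without Control 16 h replicate 5, controls rose from 3.5 h to 16 h by 0.41 with an adjusted p of 0.0326, and VWF against control at 16 h was -0.41 with an adjusted p of 0.0913, against -0.13 ± 0.49 (SE) with it.

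**Figure D2:**
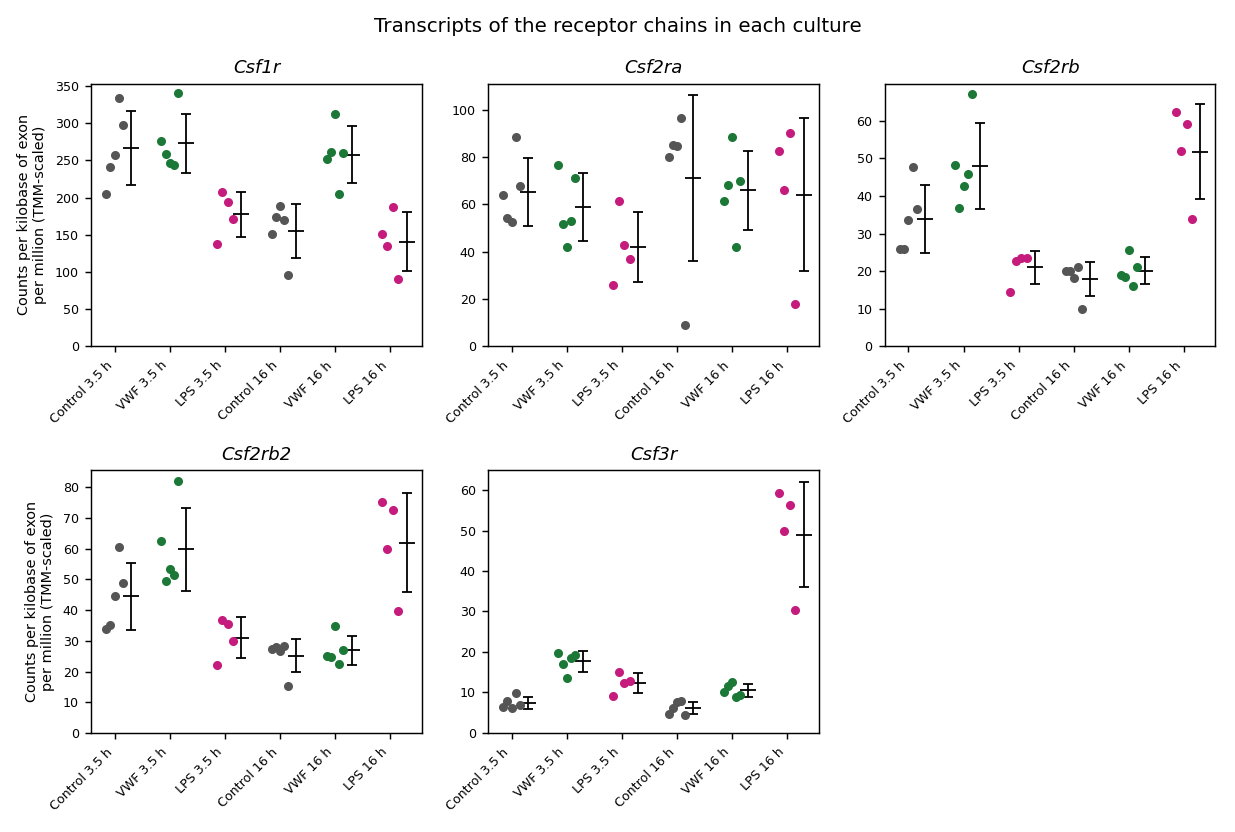
Levels of the 5 receptor genes, in TMM-scaled RPKM, for each culture (points) by treatment and time, with the mean and SD (bars). At 16 h, Csf3r, Csf2rb and Csf2rb2 were above all controls of that time in the 4 LPS cultures. Csf1r was above the controls of that time in the 5 VWF cultures.

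Csf2rb (ENSMUSG00000071713, GRCm38 chromosome 15, 78325752 to 78353847, plus strand) and Csf2rb2 (ENSMUSG00000071714, chromosome 15, 78282507 to 78305721, minus strand) lie side by side and have nearly the same coding sequence. Their coding sequences matched at 95.2% of 2628 aligned bases, with 125 mismatches. Of the 150-base windows of the Csf2rb coding sequence, 6.50% were identical to Csf2rb2, so that a read from those windows cannot be placed without its mate. How such reads were counted is not given in the sources used here. The stretch of 90 bases without gaps that held the most mismatches, 16 in capitals, shows positions by which reads can be told apart (GENCODE M21, positions 308 to 397 of the Csf2rb coding sequence and 311 to 400 of that of Csf2rb2). It was picked for its mismatches and is not typical of the whole sequence.
Csf2rb: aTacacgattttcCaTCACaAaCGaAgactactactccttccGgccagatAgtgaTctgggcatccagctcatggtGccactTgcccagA
Csf2rb2: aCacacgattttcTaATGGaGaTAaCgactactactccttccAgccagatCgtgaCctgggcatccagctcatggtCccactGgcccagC

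In controls, Csf2rb was at 25.9, 26.0, 33.5, 47.7 and 36.6 RPKM at 3.5 h and at 20.1, 19.9, 18.1, 21.2 and 9.94 RPKM at 16 h. LPS cultures went the other way, from 14.3, 22.8, 23.4 and 23.4 RPKM at 3.5 h to 62.4, 51.9, 59.1 and 33.8 RPKM at 16 h. At 3.5 h all LPS cultures were below all controls, and at 16 h all were above. Csf2rb was lower with LPS at 3.5 h without reaching the fold threshold (log2 fold change -0.68 ± 0.20, SE, adjusted p = 0.0115; 0 of 6 members tested were called by edgeR or by DESeq2 there, against 24.5% of 8190 genes called). With scaling by library size, 5 of 6 were called lower there, where 2213 of all 8190 genes were called lower and their median log2 fold change was -0.55. Csf2rb was then at -1.23 and Csf2rb2 at -1.06. At 16 h Csf2rb rose with LPS (log2 fold change 1.56 ± 0.25, SE, adjusted p = 0.000500), where 3 of 6 members were called higher against 15.3% of 7994 genes. The LPS effect changed between the times (log2 fold change 2.27 ± 0.35, SE, adjusted p = 3.83e-05), where 3 of 6 members were called higher against 13.5% of 8748 genes. This change stayed called in every fit without 1 culture, at 2.11 to 2.42.

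VWF cultures were at 48.3, 36.8, 42.5, 45.7 and 67.1 RPKM of Csf2rb at 3.5 h and at 19.0, 18.5, 25.7, 16.1 and 21.1 RPKM at 16 h. They overlapped with controls at both times, were above all LPS cultures at 3.5 h and below all of them at 16 h. VWF against control gave log2 fold change 0.52 ± 0.20, SE, adjusted p = 0.0550 at 3.5 h and log2 fold change 0.15 ± 0.21, SE, adjusted p = 0.670 at 16 h. Against LPS, Csf2rb was higher with VWF at 3.5 h (log2 fold change 1.23 ± 0.20, SE, adjusted p = 0.000497), the only member called of 6 tested there, against 4.71% of 7500 genes called higher, and lower at 16 h (log2 fold change -1.36 ± 0.20, SE, adjusted p = 0.000209). The fall in VWF cultures over time was called (log2 fold change -1.25 ± 0.17, SE, adjusted p = 6.39e-05) and that in controls was not (log2 fold change -0.93 ± 0.23, SE, adjusted p = 0.00886; -1.01 and called without Control 3.5 h replicate 1 or 2), but the 2 falls did not differ past the threshold (log2 fold change -0.32 ± 0.30, SE, adjusted p = 0.467). The difference between VWF and LPS turned with time (log2 fold change -2.61 ± 0.29, SE, adjusted p = 1.22e-06).

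Csf2rb2 was at 34.0 to 60.5 RPKM in controls, 49.4 to 82.2 with VWF and 22.1 to 36.7 with LPS at 3.5 h, and at 15.4 to 28.3, 22.4 to 34.9 and 39.8 to 75.2 RPKM at 16 h. It rose with LPS at 16 h (log2 fold change 1.32 ± 0.23, SE, adjusted p = 0.000909) and was lower with VWF than with LPS at that time (log2 fold change -1.19 ± 0.20, SE, adjusted p = 0.000560). The difference between VWF and LPS at 3.5 h was just short of the fold threshold (log2 fold change 0.98 ± 0.19, SE, adjusted p = 0.00164) and passed it with the counts of both chains summed (log2 fold change 1.11), with scaling by library size (1.29) and in 5 of 9 fits without 1 culture, at up to 1.07. The rise in LPS cultures over time was called (log2 fold change 1.03 ± 0.22, SE, adjusted p = 0.00362), where 3 of 6 members were called higher against 14.6% of 6987 genes. It lay close to the fold threshold and fell below it without LPS 3.5 h replicate 1 (0.90), LPS 16 h replicate 1 (0.92) or LPS 16 h replicate 3 (0.95), with scaling by library size (0.98), with all groups in one fit (0.98), with filterByExpr (0.998) and without a filter (0.9999). Scaling by library size alone ended the calls of both beta chains at 16 h. Csf2rb then stood at 0.99 and Csf2rb2 at 0.75 for LPS against control, and at -0.91 and -0.75 for VWF against LPS. Without the 2 libraries that stood apart, Csf2rb was at 1.57 and Csf2rb2 at 1.35 for LPS against control.

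The 2 chains moved together. Csf2rb was the gene closest to Csf2rb2 among 8867 expressed genes over the 28 cultures, at a root-mean-square difference of 0.125 in centred log2 CPM (counts scaled for depth), where the median gene was at 0.811. Csf2rb2 took 45.3% to 46.7% of the counts of both chains in controls at 3.5 h, and 45.4% to 51.2% with LPS. At 16 h it took 46.6% to 50.3% in controls and 43.0% to 44.5% with LPS, without overlap. The mean difference at 16 h was -4.46 percentage points (exact permutation test, two-sided, p = 0.0159, the smallest that 4 against 5 cultures allow; 0.0635 adjusted over 4 comparisons), and none of the 4 comparisons passed after adjustment. The other differences were 2.86 points for LPS at 3.5 h and -1.39 and -1.57 points for VWF at 3.5 h and 16 h.

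Csf3r, the G-CSF receptor (ENSMUSG00000028859, GRCm38 chromosome 4, 126024550 to 126044440, plus strand), was higher in every VWF culture than in the controls of the same time. Controls were at 6.38, 7.90, 6.05, 9.79 and 6.94 RPKM at 3.5 h and at 4.73, 6.07, 7.53, 7.83 and 4.40 RPKM at 16 h. VWF cultures were at 19.8, 17.1, 13.5, 18.6 and 19.3 RPKM at 3.5 h and at 10.1, 11.6, 12.7, 8.76 and 9.43 RPKM at 16 h. No VWF culture overlapped with the controls of its time. LPS cultures were at 9.21, 15.1, 12.2 and 12.9 RPKM at 3.5 h, overlapping with controls, and at 59.4, 49.9, 56.2 and 30.3 RPKM at 16 h, above every other culture of the study.

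Csf3r rose with VWF at 3.5 h, from 7.41 ± 1.502 (SD, n = 5) to 17.7 ± 2.53 (SD, n = 5) RPKM (log2 fold change 1.27 ± 0.15, SE, adjusted p = 2.88e-05). It was the only one of the 6 members tested that was called there, against 9.1% of 8200 genes called higher. With LPS at 3.5 h the difference was smaller than the fold threshold (log2 fold change 0.75 ± 0.17, SE, adjusted p = 0.00227), and VWF against LPS gave log2 fold change 0.55 ± 0.16, SE, adjusted p = 0.0149. At 16 h the rise with LPS was called (log2 fold change 3.02 ± 0.25, SE, adjusted p = 6.47e-06) and that with VWF was below the threshold (log2 fold change 0.77 ± 0.19, SE, adjusted p = 0.0111), and VWF was lower than LPS (log2 fold change -2.21 ± 0.20, SE, adjusted p = 8.99e-06). Csf3r rose over time in LPS cultures (log2 fold change 2.01 ± 0.23, SE, adjusted p = 7.23e-05) and the LPS effect grew with time (log2 fold change 2.30 ± 0.31, SE, adjusted p = 1.14e-05). The VWF effect did not change past the threshold (log2 fold change -0.46 ± 0.24, SE, adjusted p = 0.167), while the difference between VWF and LPS did (log2 fold change -2.77 ± 0.26, SE, adjusted p = 1.66e-07).

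Markers of other cell types moved with some of these results. The 8 neutrophil and granulocyte precursor markers, all with counts in some culture, summed to 1.69 to 2.30 RPKM with LPS and 4.51 to 6.37 RPKM with VWF at 16 h, against 1.49 to 2.84 in controls, so that VWF cultures lay above all controls. At 3.5 h they summed to 4.36 to 7.29 RPKM with VWF, within the 2.26 to 7.50 of controls. Of these markers, Ly6g had counts in 3 of the 28 cultures. The 3 endothelial markers summed to 6.56 to 9.89 RPKM with LPS and 0.567 to 1.02 with VWF at 16 h, against 0.256 to 0.385 in controls, with Kdr at up to 7.54 and Cdh5 at no more than 0.685 RPKM in any culture. The 4 dendritic cell markers summed to 2.85 to 6.72 RPKM with LPS at 16 h, against 0.0997 to 0.397 in controls. The part of such cells in the results for Csf3r, Csf1 and the beta chains was not tested.

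**Figure D3:**
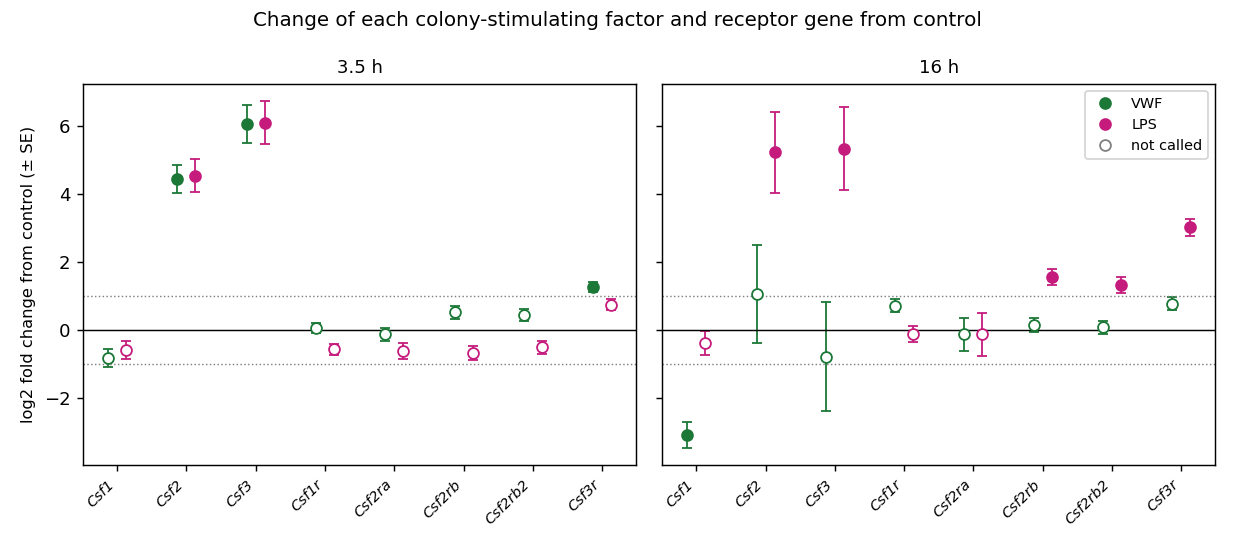
Log2 fold change from control (y axis, ± SE) of each colony-stimulating factor and receptor gene with VWF (green) and LPS (magenta) at 3.5 h and 16 h, with filled points for called genes and dotted lines at the fold threshold. Both treatments were compared with the same control cultures; Csf1 with VWF at 16 h (-3.10) was the only called fall, and Csf2 and Csf3 were called with both treatments at 3.5 h and with LPS at 16 h.

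The order of the groups differed between the genes. Csf1 ran from controls at 3.5 h down to VWF at 16 h, and each neighbour in that order overlapped with the next except LPS at 16 h and VWF at 16 h. For Csf3r, LPS at 16 h stood alone at the top at 49.0 ± 13.03 (SD, n = 4) RPKM and the 5 groups below it overlapped with their neighbours, down to controls at 16 h. Csf2rb and Csf2rb2 were both led by LPS at 16 h and VWF at 3.5 h, which overlapped, and ended with VWF and controls at 16 h, which overlapped too. The neighbouring groups of Csf1r and Csf2ra overlapped throughout.

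Genes of the same pathways were counted from lists chosen with earlier results of these data known. Of 12 genes of receptor-proximal signalling, 12 were tested at 3.5 h, and VWF raised 3 and lowered 1, with a list median of 0.11 against -0.01 for all genes. That is 4 of 12 genes, where 14.7% of all genes were called. Jak2, the kinase bound to the beta chain, rose from 8.50 to 75.1 RPKM (log2 fold change 3.16 ± 0.16, SE, adjusted p = 3.13e-08), Stat5a from 2.34 to 14.1 RPKM (log2 fold change 2.60 ± 0.15, SE, adjusted p = 7.79e-08) and Stat3 from 9.22 to 19.4 RPKM (log2 fold change 1.09 ± 0.07, SE, adjusted p = 2.07e-07). Inpp5d, a lipid phosphatase that dampens receptor signalling, fell (log2 fold change -1.02 ± 0.11, SE, adjusted p = 1.93e-05), although its log2 fold change reached -0.95 in fits without 1 culture. LPS raised 4 and lowered 1 at 3.5 h, among them Jak2 (log2 fold change 3.48), Stat5a (3.99) and Stat3 (1.92) upward and Inpp5d downward (-1.93), that is 5 of 12 genes, where 24.5% of all genes were called. At 16 h, 0 of 11 genes tested were called with VWF, where 8.71% of all genes were, while LPS raised 3 of 11, where 15.3% of all genes were called higher, Jak2 (2.98), Stat3 (2.31) and the adaptor Grb2 (1.05).

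Of 8 feedback inhibitors and targets, 7 were tested at 3.5 h, and VWF raised 4 and lowered 2, with a list median of 2.63 against -0.01 for all genes, of which 14.7% were called. LPS raised 4 and lowered 2 as well, with a median of 3.70 against -0.02 for all genes, of which 24.5% were called. Socs3, an inhibitor of the receptors' Jak kinases, went from 2.53 RPKM in controls to 404 with VWF (log2 fold change 7.32 ± 0.40, SE, adjusted p = 6.23e-08) and to 601 with LPS (log2 fold change 7.89 ± 0.45, SE, adjusted p = 5.42e-08). Socs1, a related inhibitor, rose by 6.03 with VWF and 8.63 with LPS on the log2 scale, Cish, a Stat5 target, by 3.51 and 4.57, and the kinase gene Pim1 by 2.63 and 3.70. At 16 h, VWF raised 1 of 5 genes tested, Socs3 (log2 fold change 2.65 ± 0.35, SE, adjusted p = 0.000224), where 355 of all 7798 genes were called higher. LPS raised 4 of 6, where 15.3% of all genes were called higher, namely Socs3 (7.03), Socs1 (6.57), Pim1 (2.81) and Mcl1 (1.45), a survival gene.

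Of 8 transcription factors of myeloid receptor genes, all were tested. VWF at 3.5 h raised Cebpb (log2 fold change 1.21 ± 0.19, SE, adjusted p = 0.000240) and lowered 2, among them Cebpa (log2 fold change -1.65 ± 0.08, SE, adjusted p = 2.55e-08), with a list median of -0.28 and 14.7% of all genes called. LPS at 3.5 h raised 1, Irf8 (2.72), and lowered 4, among them Cebpa (-4.35) and Runx1 (-1.24), with 24.5% of all genes called. At 16 h, VWF lowered 1, Ets2 (log2 fold change -1.39 ± 0.25, SE, adjusted p = 0.00169), and LPS raised Cebpb (2.51) and lowered Cebpa (-1.67), with 8.71% and 27.6% of all genes called. Of the pair Adam17, the protease that sheds Csf1r, and its partner Rhbdf2, VWF raised both at 3.5 h (log2 fold change 1.10 ± 0.11, SE, adjusted p = 5.67e-06 and log2 fold change 1.30 ± 0.09, SE, adjusted p = 4.16e-07) while at 16 h both were higher by less than the fold threshold (log2 fold change 0.57 ± 0.08, SE, adjusted p = 0.000456 and log2 fold change 0.77 ± 0.11, SE, adjusted p = 0.000327). LPS raised Rhbdf2 at both times (1.78 and 1.87).

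Among 5 genes associated with GM-CSF, 4 were tested at 3.5 h and both treatments raised 2 and lowered 2, where 14.7% of all genes were called with VWF and 24.5% with LPS. The chemokine genes Ccl22 and Ccl17 rose with VWF (log2 fold change 5.08 ± 0.39, SE, adjusted p = 8.07e-07 and log2 fold change 4.45 ± 0.56, SE, adjusted p = 4.72e-05) and with LPS, from 0.266 to 35.1 RPKM and from 0.250 to 13.2 RPKM. Pparg, a lipid-sensing nuclear receptor, fell with VWF from 16.2 to 3.96 RPKM (log2 fold change -2.02 ± 0.12, SE, adjusted p = 1.01e-07) and Bhlhe40, a transcription factor, fell as well (log2 fold change -1.42 ± 0.10, SE, adjusted p = 2.77e-07). Their values with LPS were -1.32 and -2.36. At 16 h the fall of Pparg and Bhlhe40 with VWF was again called (log2 fold change -2.33 ± 0.23, SE, adjusted p = 2.85e-05 and log2 fold change -1.27 ± 0.18, SE, adjusted p = 0.000374), the only 2 of the list tested there, and LPS raised Ccl22 (5.03) and lowered Pparg (-1.81) of 3 tested, where 8.71% of all genes were called with VWF and 27.6% with LPS. Of the 9 related ligands and receptor chains, 1 or 2 reached the filter in each of these comparisons, and 1 call was made, a rise of Kitl, the ligand of the receptor Kit, with LPS at 3.5 h (1.68). The 4 dendritic cell markers summed to 2.69 to 4.01 RPKM with VWF and 4.75 to 5.94 with LPS at 3.5 h, against 0.206 to 0.284 in controls, with Xcr1 at up to 6.49 RPKM and Flt3 at no more than 0.0334 in any culture, and the part of such cells in these results was not tested.

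Over the 28 cultures, the genes whose profile was closest to each receptor gene and to Csf1 were found by the root-mean-square difference in centred log2 CPM. For Csf1 these were Emp1, Plxdc2 and Fzd7, at 0.596 to 0.699 where the median gene was at 1.49. Csf1r was closest to Srp72, Eif4g1 and Txndc11 (0.179 to 0.207, median gene 0.702), and genes close to Csf2ra included Fig4 and Ciz1 (0.2401 and 0.243, median gene 0.912). After each other, Csf2rb was closest to Fam20c and Sde2 and Csf2rb2 to Zfp516 and Fam20c. Csf3r was closest to Tapbpl, Slc31a1 and Sppl2a (0.369 to 0.415, median gene 1.13).

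**Figure D4:**
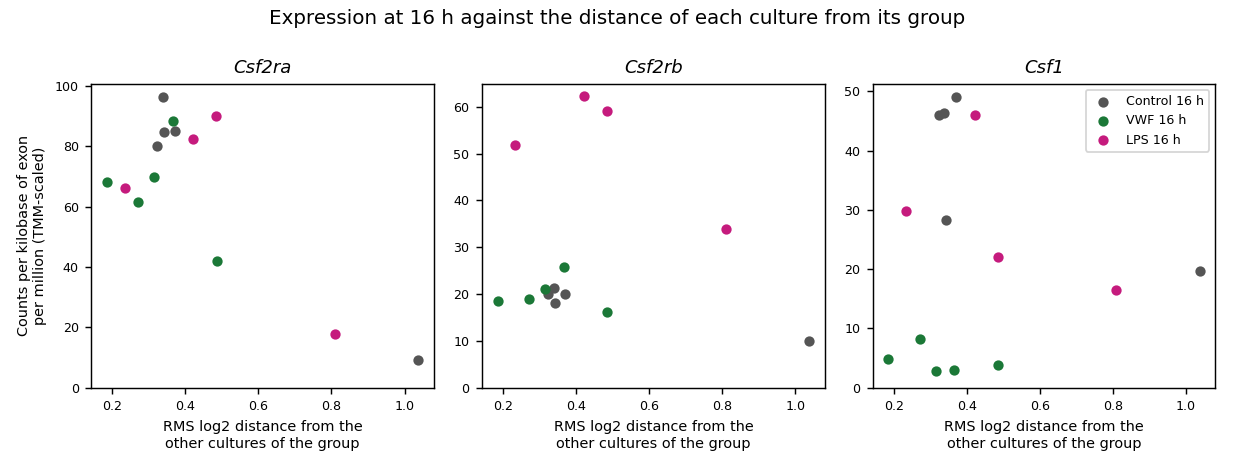
Levels of Csf2ra, Csf2rb and Csf1 in the cultures at 16 h (y axis, TMM-scaled RPKM) against the root-mean-square log2 distance of each culture from the other cultures of its group (x axis). The 2 libraries at distances of 0.809 and 1.04 held the 2 lowest Csf2ra levels, 17.7 and 9.08, while the lowest Csf1 levels were in VWF cultures at distances of 0.185 to 0.486.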

How the data were processed

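Per the study's methods and the labels, the authors aligned 150-base read pairs to GRCm38 by STAR and deposited unfiltered raw counts per Ensembl gene for 28 cultures. Annotation, strandedness and treatment of multi-mapping reads were not given in the sources used here. TPM, RPKM and exon lengths came from GENCODE M21, which gave a length for 30143 of 30159 genes with counts. Total counts were 41131209 to 77699206. For the count ratios of Csf2 and Csf3 a floor of 3 counts per group was set, and no comparison had both groups at or under it. Fits without 1 culture could leave a group below that floor. For Csf3, the controls at 16 h had no counts left without replicate 4.

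Fits used the groups of a comparison alone, with edgeR 4.0.16 (R 4.3.3; TMM, robust quasi-likelihood test, Benjamini-Hochberg adjustment), a filter of 10 TPM in at least 1 culture, and calls at an adjusted p under 0.05 with a log2 fold change beyond 1 in either direction, the filter and thresholds of the study, which used DESeq2. Interactions were fitted on 4 groups. edgeR recovered most changed genes in simulated counts with the same spread between cultures for every gene past the filter. The fits without a filter, used for Csf2 and Csf3, and genes with a wider spread were not simulated. The share of Csf2rb2 was tested with an exact permutation test (scipy 1.17.1). Alternatives were DESeq2 1.42.0, median-of-ratios factors, library size scaling, filterByExpr, no filter, all groups in one fit, a replicate block, summed beta chains and leaving out each culture. After the data had been seen, leaving out both libraries that stood apart and the combinations with no filter (for Csf2 and Csf3) were added.

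The members, lists (members; related ligands and receptor chains; receptor-proximal signalling; feedback inhibitors and targets; transcription factors; shedding; GM-CSF-associated genes) and marker genes were chosen with earlier results of these data known. Named genes were the members in every comparison and at most 4 called genes per list with the largest change. A few genes that these rules would name are not reported here. All same-numbered pairs of cultures deviated together only between VWF and LPS at 16 h (correlations of 0.16 to 0.781 over 4 pairs). In every other comparison of 2 groups some pairs did and others did not, with lowest correlations of -0.666 to -0.153 and highest of 0.181 to 0.685. What the numbers stand for is not stated. No 2 cultures were duplicates (chi-square per degree of freedom of at least 17.1 over 52 pairs).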

Additional observations from a re-analysis of the deposited data

Results flagged for a closer look

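A test for outlying cultures was run over 48 sets of 1 member gene in 1 group. In 8 sets a culture lay far from the rest of its group, where chance flags about 1 in 20 for values with a normal spread. Counts near 0, as for Csf2 and Csf3 in controls, do not follow such a spread. Control 16 h replicate 5, a library that stood apart across all genes, was low for Csf2ra (9.08 RPKM), Csf2rb (9.94 RPKM) and Csf2rb2 (15.4 RPKM). Control 16 h replicate 4 was high for Csf2 (0.0607 RPKM, from 3 counts) and for Csf3 (0.160 RPKM, from 14 counts where the other 4 controls had 0). LPS 3.5 h replicate 1 was low for Csf2rb (14.3 RPKM), VWF 3.5 h replicate 3 was high for Csf2 (3.26 RPKM) and Control 3.5 h replicate 1 was high for Csf3 (0.0496 RPKM, from 4 counts).

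An effect that differed between the 2 times, by a test of the interaction, was found for the following genes on the log2 scale. The VWF effect changed from 3.5 h to 16 h by -2.23 for Csf1 and by -6.82 for Csf3, the latter resting on Control 16 h replicate 4 (-2.33 without it). The LPS effect changed by 2.27 for Csf2rb, by 1.86 for Csf2rb2 and by 2.30 for Csf3r. The difference between VWF and LPS changed by -2.46 for Csf1, -3.94 for Csf2, -5.89 for Csf3, -2.61 for Csf2rb, -2.19 for Csf2rb2 and -2.77 for Csf3r.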

How the results depend on the processing

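The fall of Csf1 with VWF at 16 h, the rises of Csf2 and Csf3 with both treatments at 3.5 h and the rises of Csf3r with VWF at 3.5 h and LPS at 16 h stayed called under all alternatives run. Among the member genes, the replicate block ended 1 call, Csf3 with LPS at 16 h (5.64, adjusted p = 0.0567), and added 1, Csf2 over time in LPS cultures (-2.09, adjusted p = 0.0101). The cause was not tested in any case below. The number of member genes called went from 1 to 3 for VWF against control at 3.5 h, from 0 to 2 for LPS against control at 3.5 h, from 3 to 5 for VWF over time and from 1 to 2 for the VWF interaction both without a filter and with filterByExpr, and from 3 to 5 for LPS against control at 16 h without a filter, since Csf2 and Csf3 were then tested. Library size scaling gave 2 for VWF against control at 3.5 h, 5 for LPS against control at 3.5 h, 1 for LPS against control at 16 h and 2 for VWF against LPS at 3.5 h. In the same order, 1260 of 8200, 2917 of 8190, 3101 of 7994 and 1106 of 7500 genes were then called. Fits without 1 culture gave 1 to 2 for VWF against control and VWF against LPS at 3.5 h and 0 to 1 for controls over time.

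All genes called, in the main fit, without a filter and with filterByExpr (both test more genes), were 1204, 2366 and 2099 for VWF and 2010, 4542 and 3917 for LPS against control at 3.5 h; 679, 1378 and 1362, and 2210, 4224 and 4087, at 16 h; and 856, 1942 and 1776 at 3.5 h and 1932, 4242 and 3897 at 16 h for VWF against LPS. Over time they were 757, 1524 and 1570 in controls, 1694, 3974 and 3458 with VWF and 1964, 4298 and 4116 with LPS. The interactions gave 1166, 1904 and 1972 for VWF, 2301, 3613 and 3790 for LPS and 2052, 3528 and 3576 for their difference.

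Directions that turned all belonged to changes that were not called. With library size scaling, Csf1r was at -0.17 for VWF against control at 3.5 h and 0.0203 for VWF over time, and VWF against LPS at 3.5 h gave 0.0922 for Csf1, 0.16 for Csf2 and 0.21 for Csf3. With the replicate block, Csf3 was at 1.85 and Csf2ra at 0.0902 for VWF against control at 16 h, Csf2 at 0.00407 for VWF against LPS at 3.5 h and Csf2ra at -0.10 for controls over time. Without both libraries that stood apart, Csf2rb2 was at -0.0578 for VWF against control at 16 h, Csf2ra at -0.26 for VWF against LPS at 16 h and at -0.25 for the VWF interaction, and Csf2 at -0.45 for the LPS interaction. Fits without 1 culture spanned 0 for Csf1r at -0.0488 to 0.13 (VWF against control, 3.5 h), -0.29 to 0.0405 (LPS against control, 16 h) and -0.16 to 0.0154 (VWF over time). For Csf2ra they spanned -0.41 to 0.0140 (VWF) and -0.42 to 0.19 (LPS) against control at 16 h, -0.26 to 0.26 (VWF against LPS, 16 h), -0.00799 to 0.41 (controls over time) and -0.25 to 0.19 (VWF interaction), for Csf2rb2 -0.0578 to 0.15 (VWF against control, 16 h) and for Csf1 -0.11 to 0.40 (LPS interaction). Csf3, with few counts, spanned -1.23 to 3.81 (VWF against control, 16 h), -0.27 to 0.20 (VWF against LPS, 3.5 h), -3.25 to 3.02 (controls over time), -0.0871 to 0.72 (LPS over time) and -2.38 to 3.40 (LPS interaction), and Csf2 -0.44 to 0.19 (VWF against LPS, 3.5 h) and -0.23 to 1.88 (LPS interaction).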
